A study of Mus musculus with 2 samples.

Results

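Transcripts of 10 p53 and DNA-damage target genes were followed in leukocytes that had entered B16-F10 melanomas, a transplantable tumour of mouse skin pigment cells, in mice with and without an induced loss of Trex1. Trex1 encodes an exonuclease that degrades DNA in the cytoplasm. The genes were taken by symbol from a list given in advance: Cdkn1a, Mdm2, Bax, Bbc3, Ccng1, Phlda3, Trp53inp1, Zmat3, Sesn2 and Gadd45b. All 10 were found among the 32432 genes measured. The study asked how the immune response that follows Trex1 loss bears on tumour growth, and the comparison here asked whether iKO leukocytes carried more of these damage-response transcripts, cell type by cell type.

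Male mice of 8 to 12 weeks were either Trex1 fl/fl R26CreERT2-ki/wt, called Trex1 iKO, or Trex1 wt/fl R26CreERT2-ki/wt, called Trex1 control. The control therefore carried 1 floxed allele of Trex1 and the same tamoxifen-activated Cre, which is driven from the broadly active Rosa26 locus and so is not limited to leukocytes. Both groups received 1000 B16-F10 cells in Matrigel into the skin of both legs on day 0 and 1 mg of tamoxifen by intraperitoneal injection on 3 days from day 5. Tumours were taken on day 14 and digested with enzymes at body temperature, and live CD45+ cells were enriched on beads, sorted, tagged with hashtag antibodies and sequenced from the 3′ ends of their transcripts. There were 4 hashtagged samples per group. The labels do not say that each sample was 1 mouse, so the p-values measure the spread between hashtagged samples. The 4 samples of a genotype shared 1 pool, so throughout, an effect of pool and an effect of genotype cannot be told apart.

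After filtering, 22052 cells remained, 1294 to 5722 per iKO sample and 1697 to 2710 per control sample, with 19016779 to 90194260 UMIs (unique molecular identifiers, 1 per captured transcript) per iKO sample and 16605777 to 32041699 per control sample. Cells were clustered without the genes described here and called after a type from marker genes, as "X-like"; 11 classes were named, and 1940 cells stayed unnamed. The largest classes were monocyte/macrophage-like (8645 cells), CD8 T-like (4663) and neutrophil-like (1918). Although the labels speak of lymphocytes, the monocyte/macrophage markers led the largest class. Neutrophil-like cells made up 1.48 to 6.19% of iKO cells and 10.3 to 21.6% of control cells per sample. Trex1 itself had 2 UMIs in all kept cells, both in control 2, so it could not check the genotype labels.

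The transcription factor p53 is held at a low level in most cells by Mdm2, which marks it for degradation. DNA breaks activate the kinases Atm and Atr, p53 is stabilised, and it switches on genes that halt the cell cycle (Cdkn1a, Ccng1), that start cell death (Bax, Bbc3, Phlda3, Trp53inp1), that process RNA or reduce oxidative stress (Zmat3, Sesn2), and Mdm2 itself, which closes the loop. Several of these genes also answer to other signals in leukocytes: Cdkn1a is high in differentiating myeloid cells, Gadd45b follows NF-kB and cytokine signals, and Sesn2 follows nutrient and ATF4 stress.

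The promoters are shown for the DNA letters behind the name p53 target. RefSeq windows of 300 bases, 250 before and 50 after a transcription start (GRCm38.p6), were matched for 8 of the 10 genes. Each was searched for the p53 consensus, a pair of half-sites of 10 letters with a spacer of 0 to 13 bases, which reads the same on both strands. Of the 5 genes with at most 3 mismatches, 4 are printed with 20 flanking bases on each side and the half-sites in capitals, the arrest genes first and then the death genes.

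Cdkn1a, chr17:29090886-29090957, plus strand, 0 mismatches, half-sites from 73 to 42 bases before the start: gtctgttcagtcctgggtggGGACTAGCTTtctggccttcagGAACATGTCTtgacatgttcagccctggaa
Ccng1, chr11:40755442-40755501, minus strand, 1 mismatch, from 195 to 176 bases before the start: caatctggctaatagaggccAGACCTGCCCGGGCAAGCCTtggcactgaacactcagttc
Bax, chr7:45467059-45467119, minus strand, 2 mismatches, from 201 to 181 bases before the start: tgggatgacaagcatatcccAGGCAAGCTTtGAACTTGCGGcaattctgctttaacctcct
Bbc3, chr7:16309466-16309525, plus strand, 3 mismatches, from 97 to 78 bases before the start: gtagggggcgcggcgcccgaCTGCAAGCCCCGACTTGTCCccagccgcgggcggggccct

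Gadd45b also had a pair of half-sites with 3 mismatches, and the best pairs in the Mdm2, Phlda3 and Sesn2 windows had 4, 5 and 6. Cdkn1a had 2 windows at different starts, and the best pair in the window not printed (chr17:29093687-29093752) had 5 mismatches. Bbc3 had 3 windows, with best pairs of 3, 3 and 6 mismatches. Of all 32851 RefSeq mouse promoters of this length, 0.0731% held a match without mismatch, 0.627% at most 1, 4.09% at most 2 and 15.6% at most 3. A match describes these letters and not binding by p53, and sites outside the window were not searched.

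None of the 10 genes passed the test in the sum over all kept cells or in any of the 8 classes with enough cells to test. The cDC1-like class had too few control samples to test. There the 10 genes summed to 717 to 897 UMIs per 1000000 in 4 iKO samples and 528 to 568 in 2 controls. Each gene's mean was higher in iKO. Ranges were apart for Bax, Ccng1, Phlda3 and Trp53inp1 and overlapped for the others, Cdkn1a included. The share of all genes with higher means or separate ranges was not measured in this class. Nothing particular to the target genes can therefore be read from these values. In the other untested classes, NK-like and pDC-like, the sums overlapped. Counts were summed per sample and class, and edgeR's quasi-likelihood test with Benjamini-Hochberg adjustment over all genes and a threshold of 0.05 gave 0 calls in 74 tests of a gene in a profile (a profile is the whole sample or a class). The smallest adjusted p was 0.0535, for Phlda3 in monocyte/macrophage-like cells. DESeq2, run as an alternative, called 2 of them, Phlda3 in the same class and Gadd45b in mature DC-like cells. A fit with the replicate number as a block also called some of them, as given in the last section. At an unadjusted p under 0.05, 14 of the 74 were past the line, 8 with higher levels in iKO and 6 with lower levels.

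The same tests did call other genes, so a comparison with all genes is possible for each profile. Over all genes tested, 2.53% were called in the whole sample, 2.52% in B-like, 2.95% in CD4 T-like, 3.31% in CD8 T-like, 1.39% in Treg-like, 2.19% in cDC2-like, 0.0419% in mature DC-like, 12.2% in monocyte/macrophage-like and 1.30% in neutrophil-like cells, against 0 of the 4 to 10 target genes tested in each. At an unadjusted p under 0.05, 2 of 10 target genes were past the line in the whole sample (21.5% of all genes), 1 of 4 in B-like (12.2%), 1 of 6 in CD4 T-like (12.8%), 3 of 10 in CD8 T-like (19.9%), 1 of 8 in Treg-like (14.4%), 3 of 10 in cDC2-like (17.9%), 2 of 8 in mature DC-like (12.8%), 0 of 8 in neutrophil-like (10.1%) and 1 of 10 in monocyte/macrophage-like cells (29.9%). On 4 to 10 genes, 1 gene more or less moves such a share by at least 10 percentage points. The missing tests belong to genes with too few UMIs in a class, 6 of them in B-like cells, Cdkn1a included. The median log2 difference of the tested target genes, iKO minus control, was -0.16 in the whole sample, -0.39 in CD8 T-like and -0.06 in monocyte/macrophage-like cells, and 0.23 in cDC2-like and 0.25 in CD4 T-like cells, while the median over all genes ran from -0.02 to 0.01 over the profiles.

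**Figure D1:**
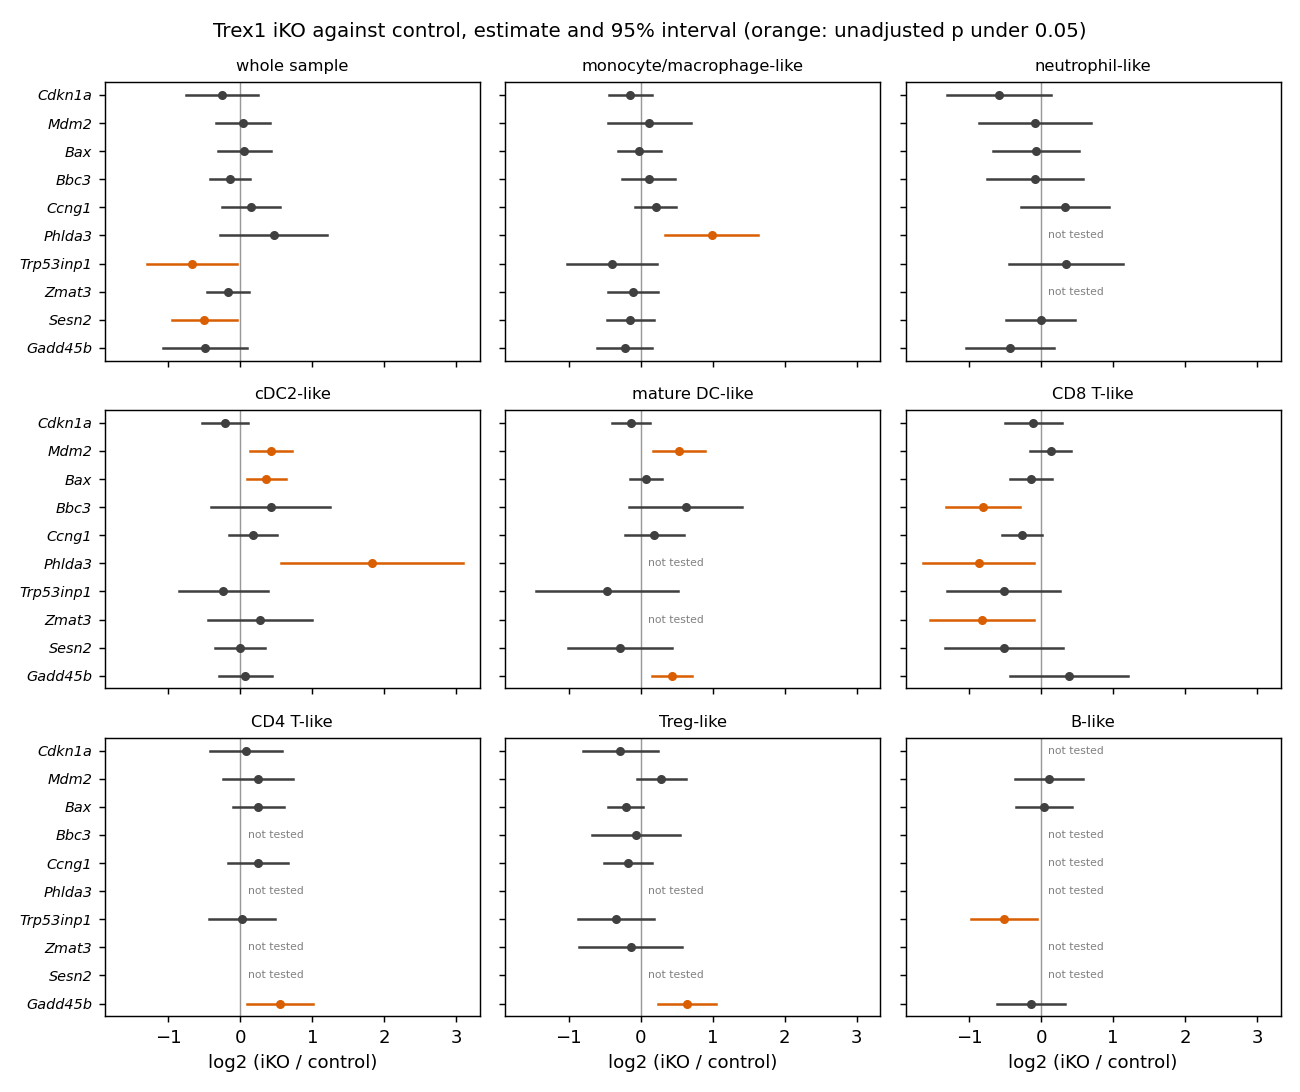
Log2 difference between Trex1 iKO and Trex1 control for each of the 10 target genes (rows) in the whole sample and the 8 tested classes, from edgeR, with 95% intervals. Points right of 0 are higher in iKO; none passed an adjusted p of 0.05, and the widest interval belongs to Phlda3 in cDC2-like cells (0.57 to 3.09).

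Cdkn1a encodes p21, the inhibitor of cyclin-dependent kinases through which p53 halts the cell cycle, and is the gene most used to read p53 activity. In the sum over all cells it stood at 408, 364, 462 and 482 CPM (UMIs scaled to 1000000 per profile) in iKO samples 1 to 4 and at 363, 521, 442 and 688 in control samples 1 to 4. The groups overlapped, and the highest value was a control. The log2 difference was -0.25 (SE 0.22, 95% interval -0.75 to 0.25, edgeR adjusted p = 0.527), so a rise of more than 1.19-fold lay outside the interval. Without control 4 the difference was 0.00. In a sum over all cells, a change in the share of a cell type and a change in its RNA cannot be told apart, so the classes are given next.

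Cdkn1a differed more between classes than between genotypes. Its mean over samples was 771 CPM in neutrophil-like cells (240 to 1468), 710 in monocyte/macrophage-like (601 to 824), 553 in cDC2-like (444 to 748) and 415 in mature DC-like cells (375 to 543). It was 168 in cDC1-like, 106 in Treg-like, 92.6 in CD4 T-like, 90.5 in CD8 T-like, 56.5 in NK-like, 43.8 in pDC-like and 34.5 in B-like cells. Neighbours in this order overlapped in range, with one exception: every mature DC-like sample (at least 375) lay above every cDC1-like sample (at most 228). Myeloid cells and mature dendritic cells thus carried high Cdkn1a in both genotypes, and lymphocytes low.

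**Figure D2:**
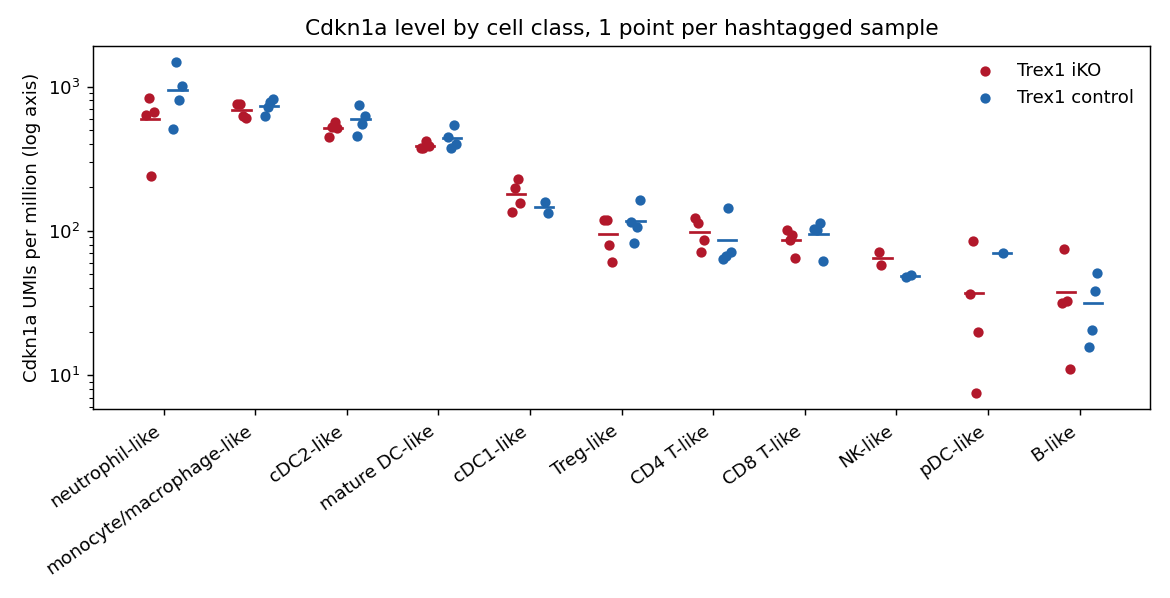
Cdkn1a level in CPM (log scale) in each named class, with 1 point per hashtagged sample of at least 20 cells and Trex1 iKO and Trex1 control side by side. The bars are group means; the genotypes overlap in every class except NK-like cells, which had 2 samples of each, and the classes differ by more than the genotypes do.

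Within classes the Cdkn1a values of the genotypes overlapped. In monocyte/macrophage-like cells they were 753, 753, 626 and 601 CPM in iKO and 625, 720, 775 and 824 in control samples, a log2 difference of -0.15 (95% interval -0.45 to 0.15). In CD8 T-like cells they were 101, 87.0, 93.0 and 64.4 against 103, 101, 113 and 62.3 CPM (-0.11, -0.51 to 0.29). The fold in these 2 classes therefore had upper limits of 1.11 and 1.22. The difference was -0.21 (-0.53 to 0.11) in cDC2-like, -0.14 (-0.39 to 0.12) in mature DC-like, -0.28 (-0.80 to 0.23) in Treg-like and 0.07 (-0.43 to 0.57) in CD4 T-like cells. In neutrophil-like cells it was -0.59, with a wide interval from -1.31 to 0.14. The iKO effect did not pass the test for a difference between monocyte/macrophage-like and CD8 T-like cells (-0.03, SE 0.22, edgeR adjusted p = 0.98).

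The make-up of both large classes differed between genotypes, and Cdkn1a was compared within the clusters that both held. Among monocyte/macrophage-like cells, a cluster led by the interferon-induced chemokines Cxcl9 and Cxcl10 (cluster 3) held 18.4% of the class in iKO and 2.44% in control samples, whereas a cluster led by Mmp12, Arg1 and Vegfa (cluster 1) held 7.82% and 26%. Cluster 1 had the highest Cdkn1a of the class, 1231 CPM in iKO (1143 to 1288) and 1190 in control samples (983 to 1446). Cluster 13, led by Vcan and Chil3, stood at 703 and 704 CPM, cluster 16 at 713 and 727, and cluster 17, led by Pf4 and Mrc1, at 772 and 775. Cluster 23, led by Ccl8, Vcam1 and Igf1, had less Cdkn1a and was apart from these, at 389 CPM in iKO (264 to 588) and 233 in control samples (167 to 303), ranges that overlapped. Means of other target genes were also higher in iKO there: Mdm2 (67.6 and 38.9 CPM), Bax (464 and 317) and Bbc3 (17.8 and 7.69). Higher Mdm2 means were not particular to cluster 23, as given below. So were those of Ccng1 (63.5 and 37.3), Zmat3 (8.68 and 5.34), Sesn2 (12.4 and 9.78) and Phlda3, given below. Those of Trp53inp1 (3.88 and 9.59) and Gadd45b (99.9 and 128) were lower. All these ranges overlapped except for Ccng1 (41.5 to 95.4 and 30.4 to 41.2), and single clusters were not tested. Among CD8 T-like cells, cluster 19, led by Lef1 and Tcf7, genes of naive and memory T cells, held 7.0% of the class in iKO and 38.4% in control samples. It had 13.5 CPM of Cdkn1a in iKO (11.8 to 14.9) and 23.2 in control samples (16.2 to 31.4), groups that did not overlap at a low level. In clusters 4 and 5 of this class the ranges overlapped. Cluster 4 had 122 CPM in iKO (60.7 to 182) and 148 in control samples (137 to 168). Cluster 5 had 103 (60.0 to 132) and 108 (64.7 to 151).

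**Figure D3:**
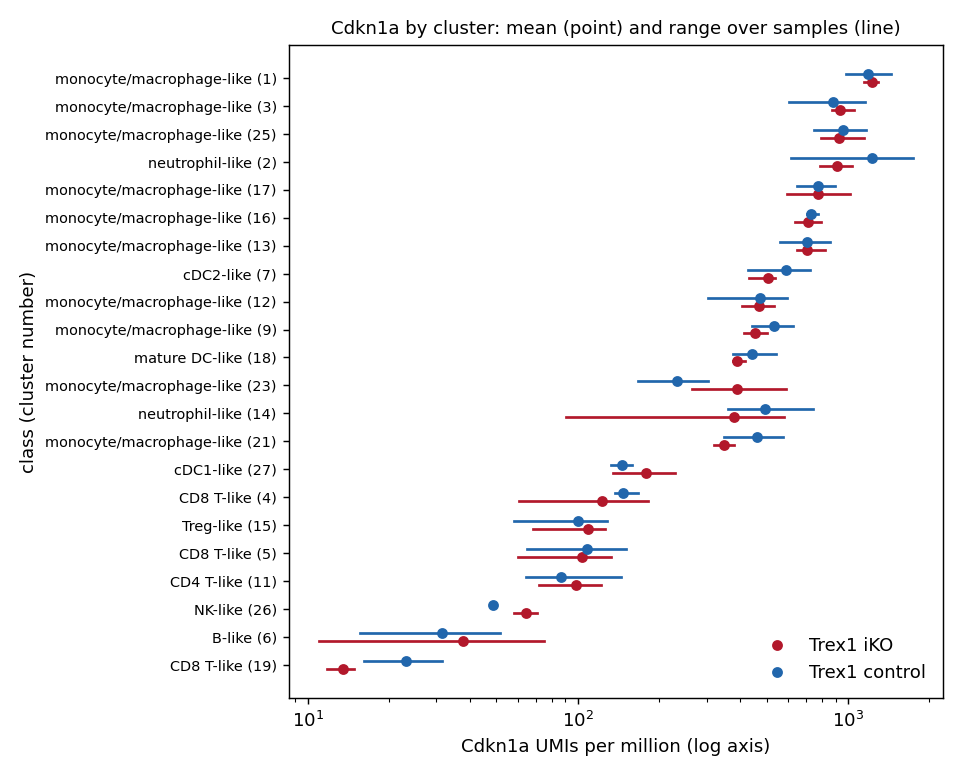
Cdkn1a level in CPM per cluster that had at least 2 samples of each genotype, with the mean (point) and range (line) over samples for Trex1 iKO and Trex1 control. The x axis is logarithmic; cluster 1 is at the top (1231 and 1190), cluster 19 at the bottom (13.5 and 23.2), and most pairs of ranges overlap.

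The share of cells with a Cdkn1a transcript gave the same picture when each cell was thinned to 3000 UMIs, which is needed because iKO cells held more UMIs (median 12983 to 14490.5 per sample against 6405 to 11845.5). It was 45.4 ± 4.21% of iKO and 45.5 ± 10.8% of control cells (SD, n = 4 samples each, exact permutation p = 1). For monocyte/macrophage-like cells it was 68.1 ± 3.71% and 73.2 ± 6.80% (exact permutation p = 0.257), and in CD8 T-like cells 15.7 ± 3.54% and 15.8 ± 2.85%. All 9 comparisons had an adjusted p of 1; the smallest p that 4 against 4 samples allow is 0.0286. Of the tested classes, B-like cells had the lowest share, 8.46 and 9.46%, a level that RNA free in the droplets could also give. Thinning left out 389 of 13232 iKO and 840 of 8820 control cells that were shallower. Unthinned, the difference in the whole sample turned from -0.09 to 8.27 percentage points.

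Ccng1, cyclin G1, acts in the feedback between p53 and Mdm2. It was highest in T cells, at 84.4 CPM in CD8 T-like (67.6 to 109), 71.7 in Treg-like and 62.1 in CD4 T-like cells, and 31.6 to 43.0 in the other classes, with overlapping neighbours. CD8 T-like cells had 77.0, 76.7, 76.5 and 75.1 CPM in iKO and 109, 99.1, 94.5 and 67.6 in control samples (log2 difference -0.27, SE 0.12, edgeR adjusted p = 0.266). Control 4 lay below all iKO samples and the other 3 controls above them. In clusters drawn at the lower resolution, the difference was -0.41 and passed (adjusted p = 0.042).

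Mdm2, the ubiquitin ligase that degrades p53 and is itself induced by it, was highest in neutrophil-like (150 CPM, 52.8 to 271) and monocyte/macrophage-like cells (92.0, 63.0 to 133). In the whole sample it was 89.2, 77.4, 58.4 and 64.2 CPM in iKO and 64.3, 82.5, 61.0 and 72.4 in control samples (log2 difference 0.04, 95% interval -0.33 to 0.41). In both dendritic classes tested, all iKO samples lay above all controls. In cDC2-like cells the values were 46.2, 40.6, 34.9 and 37.9 CPM against 32.2, 30.1, 27.2 and 30.3 (0.43, SE 0.13, edgeR adjusted p = 0.125). In mature DC-like cells they were 59.1, 51.6, 63.0 and 60.7 CPM against 48.3, 36.4, 50.7 and 32.5 (0.53, SE 0.16, adjusted p = 0.220). Neither passed, and Cdkn1a in the same cells was not higher in iKO. The Mdm2 difference was 0.11 in B-like, 0.25 in CD4 T-like, 0.13 in CD8 T-like and 0.29 in Treg-like cells. It was 0.12 in monocyte/macrophage-like and -0.08 in neutrophil-like cells, and the 95% intervals in these classes all included 0. Mean Mdm2 was higher in iKO, with overlapping ranges, in each monocyte/macrophage-like cluster with at least 3 samples per genotype. Clusters 1 (284 and 185 CPM), 12 (51.8 and 40.6), 13 (88.3 and 66.65), 16 (56.5 and 54.0) and 17 (80.8 and 54.3) joined cluster 23. With 2 control samples, clusters 3, 9 and 25 were also higher and cluster 21 lower (55.0 and 73.8). Single clusters were not tested. Cluster 1 held 7.82% of the class in iKO and 26% in control samples.

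A cell that answers damage through p53 would carry both Cdkn1a and Mdm2. In thinned cells of the whole sample, Mdm2 was found in 20.0 to 28.3% of iKO cells with a Cdkn1a UMI and in 13.8 to 17.1% without one, and in 20.6 to 24.3% and 13.7 to 15.1% of control cells. The share was higher among Cdkn1a-positive cells in 4 of 4 samples of each genotype. Compared within clusters, the difference was 2.29 to 5.67 percentage points in iKO and -0.06 to 8.52 in control samples. In CD8 T-like cells, where 2 iKO and 3 control samples had enough Cdkn1a-positive cells to compare, it was higher among them in 2 of 2 iKO and 2 of 3 control samples. Ccng1 in these cells was found in 24.7 and 25.0% with and 19.2 and 17.5% without Cdkn1a in iKO 1 and 2. In controls 1, 2 and 3 it was 43.3, 55.6 and 30.3% with and 20.3, 19.6 and 21.8% without. Phlda3 was higher with Cdkn1a in controls 1 (15 and 2.53%) and 2 (8.33 and 3.27%) and lower in control 3 (0 and 1.76%). These controls had 60, 36 and 33 Cdkn1a-positive cells, and no test was made. At least 3 of the 10 target genes were seen together in 22.6 to 27.3% of thinned iKO cells and in 22.9 to 35.4% of control cells per sample, so the groups overlapped here too.

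Bax and Bbc3 (PUMA) drive the mitochondrial step of cell death. Bax was highest in monocyte/macrophage-like cells (341 CPM, 266 to 399) and lowest in B-like cells (123). In the whole sample it was 277, 278, 288 and 305 CPM in iKO and 287, 263, 208 and 333 in control samples (log2 difference 0.06, 95% interval -0.31 to 0.43). In cDC2-like cells it was 316, 326, 273 and 301 CPM against 245, 224, 200 and 278, with overlap (0.36, SE 0.12, edgeR adjusted p = 0.162). In Treg-like cells the order was the opposite, without overlap, at 181, 193, 198 and 188 CPM in iKO and 216, 218, 204 and 225 in control samples (-0.21, adjusted p = 0.416).

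Bbc3 was low everywhere, from 5.04 CPM in B-like to 16.4 in NK-like cells. In CD8 T-like cells, all 4 iKO samples (7.35, 6.96, 11.5 and 11.2 CPM) lay below all 4 controls (12.5, 13.2, 20.5 and 12.7). The log2 difference was -0.81 (SE 0.23, 95% interval -1.32 to -0.29, edgeR adjusted p = 0.089). It passed at the lower cluster resolution (-0.78, adjusted p = 0.036), and without cycling cells it was -1.22 (adjusted p = 0.121). In monocyte/macrophage-like cells the difference was 0.11 (-0.26 to 0.48), and the test between these classes gave 0.91 (adjusted p = 0.190). In the class as a whole, no iKO sample had more of this death gene's transcripts than any control. Within clusters that both genotypes held the ranges overlapped, with mean CPM in iKO and control of 6.44 and 10.7 in cluster 4. They were 9.73 and 14.0 in cluster 5 and 15.6 and 21.8 in cluster 19. Cluster 19 held 7.0% of the class in iKO and 38.4% in control samples. The part of this make-up in the class difference was not tested.

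Phlda3, a p53-induced inhibitor of the survival kinase Akt, came nearest to the threshold, with values in opposite directions in 2 classes. In monocyte/macrophage-like cells it was 6.31, 7.54, 4.69 and 4.96 CPM in iKO and 2.71, 4.83, 2.79 and 2.02 in control samples. Control 2 lay within the iKO range and the other 3 controls below it. The fold was 1.98 (95% interval 1.27 to 3.08; log2 0.98, SE 0.29, edgeR adjusted p = 0.0535) on 571 and 116 UMIs. It passed without iKO 3 (1.09, adjusted p = 0.043) and without control 2 (1.24, adjusted p = 0.041). Restricted, after the data were seen, to clusters that both genotypes held, the log2 difference was 0.38 (adjusted p = 0.696).

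In CD8 T-like cells, where Phlda3 was highest (12 CPM over samples), iKO samples had 7.54, 8.63, 13.7 and 6.64 CPM and controls 19.9, 16.9, 19.4 and 3.35. Control 4 was the lowest of all, and the other 3 controls lay above every iKO sample. The log2 difference was -0.87 (SE 0.35, edgeR adjusted p = 0.204), and -1.10 without control 4 (adjusted p = 0.035). Among CD8 T-like clusters with at least 3 samples of each genotype, values were apart in cluster 4, cycling cells led by histone genes, with 12.8 CPM in iKO (7.05 to 20.2) and 33.2 in control samples (29.6 to 36.0), whereas cluster 5, led by granzyme genes, had 15.6 and 16 and cluster 19 had 0.70 and 0.91. Cycling cells made up 31.1 to 67.4% of CD8 T-like cells in iKO and 21.8 to 55.9% in control samples. Without cycling cells, Phlda3 had too few UMIs in this class to be tested.

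Phlda3 in cDC2-like cells followed the macrophages, at 3.59, 11.7, 10.8 and 7.82 CPM in iKO and 4.51, 4.67, 0.34 and 1.42 in control samples (log2 difference 1.83, SE 0.57, edgeR adjusted p = 0.129). It rested on 91 and 21 UMIs, and iKO 1 overlapped the controls. The iKO effect in monocyte/macrophage-like cells exceeded that in CD8 T-like cells by 1.73 (SE 0.43), which did not pass either (adjusted p = 0.10; 0.369% of all genes passed this test). At an unadjusted p under 0.05, 3 of the 10 target genes (Phlda3, Bbc3 and Ccng1) and 17.0% of all genes differed between the 2 classes. Inside the macrophage class the sign varied: cluster 23 had 25.7 CPM in 3 iKO (9.16 to 55.4) and 4.0 in 4 control samples (1.02 to 11.9), cluster 1 had 6.66 in iKO (0.50 to 18.6) and 0.94 in control samples, and cluster 3 had 1.85 in 4 iKO and 10.9 in 2 control samples.

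**Figure D4:**
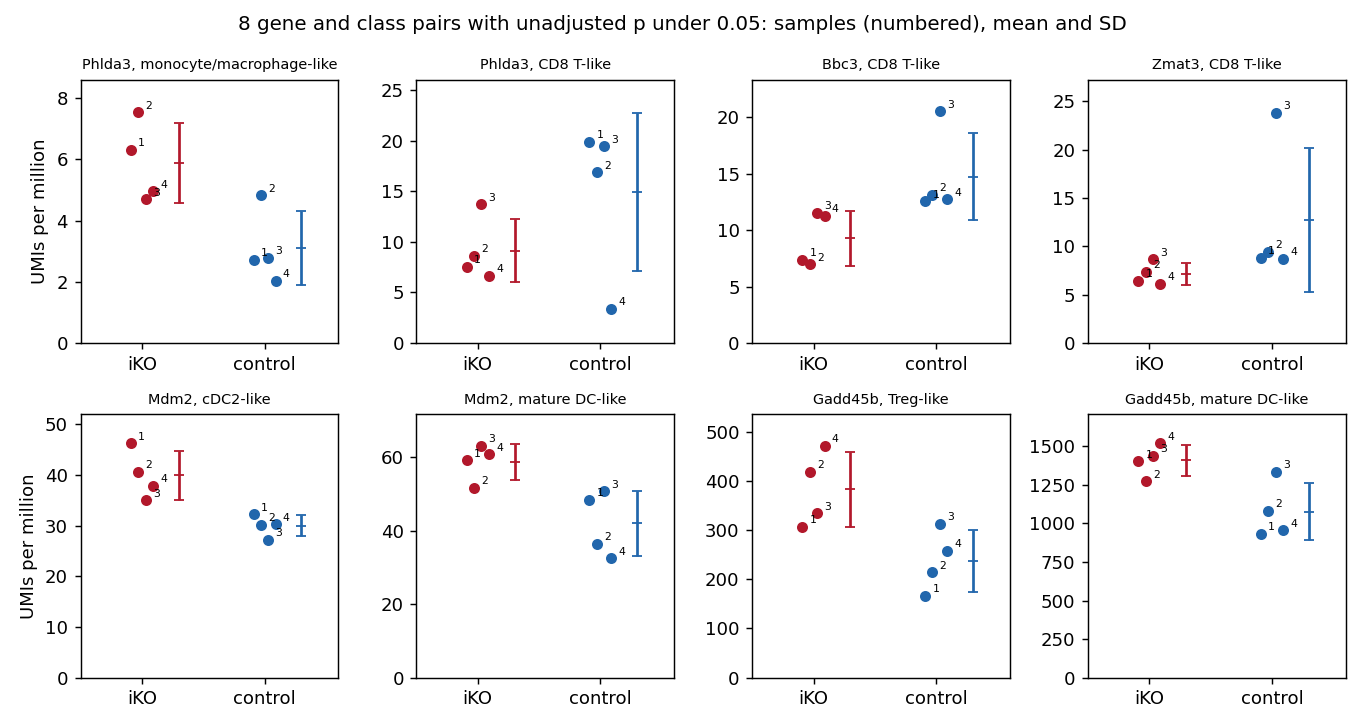
CPM per sample for 8 gene and class pairs with an unadjusted p under 0.05, with the sample number beside each point and the mean and SD of the group. Bbc3 and Zmat3 in CD8 T-like cells and Mdm2 in both dendritic classes show no overlap between genotypes; in the Phlda3 panels 1 or more samples overlap.

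Trp53inp1, a p53-induced nuclear protein that promotes cell death and autophagy, was highest in CD4 T-like cells. It averaged 93.8 CPM in CD4 T-like (53.5 to 135), 78.5 in Treg-like 59.5 in B-like and 29.5 in CD8 T-like cells, and 5.25 in cDC2-like and 6.63 in monocyte/macrophage-like cells. Neutrophil-like cells, at 56.4, and pDC-like cells, at 40.3, lay between. In the whole sample it was 12.8, 16.1, 19 and 14.8 CPM in iKO and 22.9, 31.1, 35.1 and 12 in control samples. Control 4 lay below all iKO samples and the other 3 above them (log2 difference -0.67, SE 0.27, edgeR adjusted p = 0.206; without control 4, -0.87 and adjusted p = 0.042). In B-like cells the groups did not overlap, at 48.8, 44.3, 53 and 47.8 CPM against 67.6, 88.4, 69.8 and 56.1 (-0.52, SE 0.22, adjusted p = 0.310).

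Zmat3, which encodes a zinc finger protein that binds RNA, was low throughout, from 1.56 CPM in mature DC-like to 12.7 in CD4 T-like cells. In CD8 T-like cells every iKO sample (6.44, 7.36, 8.66 and 6.13 CPM) lay below every control (8.78, 9.45, 23.8 and 8.70), by a small margin for 3 of the 4 controls. The log2 difference was -0.83 (SE 0.32, edgeR adjusted p = 0.197). It was -0.32 without control 3 (adjusted p = 0.416) and -0.45 without cycling cells (adjusted p = 0.522).

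Sesn2, a stress-induced protein that restrains mTORC1, was mainly a neutrophil transcript, with 84.8 CPM in neutrophil-like cells (69.8 to 111), above every sample of the next class, pDC-like cells (35.4, 16.7 to 45.2). In the whole sample it was 10.7, 10.7, 17.7 and 16 CPM in iKO and 16.5, 18.5, 19.8 and 22.2 in control samples (log2 difference -0.50, SE 0.20, edgeR adjusted p = 0.198). With neutrophil-like cells left out of the sum, a choice made after the data were seen, the difference was -0.19 (adjusted p = 0.630). Within neutrophil-like cells it was -0.01 (95% interval -0.48 to 0.47) and in cDC2-like cells -0.01 (-0.36 to 0.34).

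Gadd45b, a stress sensor that binds the kinase MTK1, was highest in neutrophil-like (1610 CPM, 689 to 2345) and mature DC-like cells (1243, 935 to 1520), next in CD4 T-like (387) and Treg-like (310) and lowest in B-like cells (96.5). Its whole-sample difference of -0.49 (SE 0.25, edgeR adjusted p = 0.293) was -0.04 without neutrophil-like cells. Inside T cell classes and mature dendritic cells its values were mostly higher in iKO. Treg-like cells had 307, 418, 334 and 471 CPM in iKO and 166, 214, 313 and 258 in control samples (0.64, SE 0.19, adjusted p = 0.130), with iKO 1 just below control 3. CD4 T-like cells had 371, 496, 597 and 431 CPM against 247, 261, 535 and 161 (0.55, SE 0.22, adjusted p = 0.252). Without control 3 the CD4 T-like difference was 0.99 (adjusted p = 0.001).

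In mature DC-like cells Gadd45b was 1403, 1273, 1440 and 1520 CPM in iKO and 935, 1082, 1333 and 957 in control samples. Control 3 lay within the iKO range (log2 difference 0.43, SE 0.12, edgeR adjusted p = 0.195; DESeq2 adjusted p = 0.044). Neutrophil-like cells, the richest source of this transcript, were scarcer in iKO, and the summed level of the 6 neutrophil markers was lower there in T cell classes: 95.1 to 116 CPM in iKO and 256 to 371 in control Treg-like cells, and 157 to 205 against 519 to 618 in CD4 T-like cells. In mature DC-like cells the marker sums overlapped, at 76.7 to 322 and 214 to 364. None of these markers was at 0 in these classes, and the part of neutrophil RNA in these Gadd45b values was not tested.

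**Figure D5:**
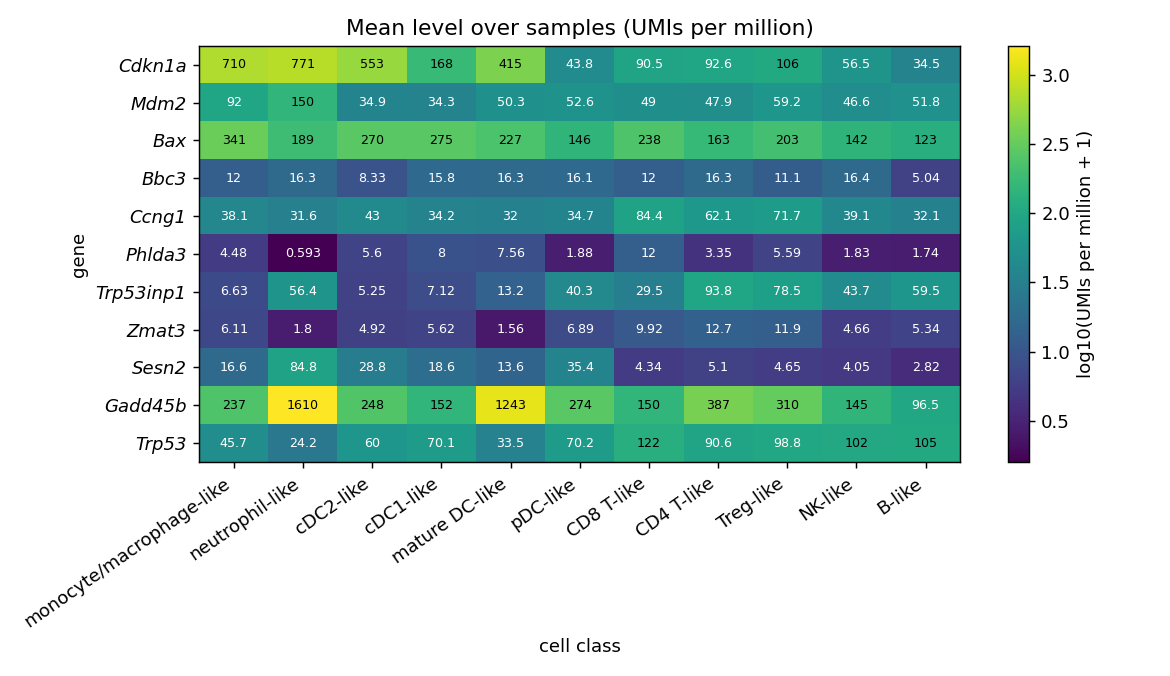
Mean level of each target gene and of Trp53 (rows) over all samples of a class (columns), printed in CPM and coloured by log10 of CPM plus 1. Neutrophil-like cells lead for Cdkn1a, Mdm2, Sesn2 and Gadd45b, monocyte/macrophage-like cells for Bax, and T cells for Ccng1, Phlda3, Trp53inp1 and Zmat3.

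The target genes did not all share 1 pattern across classes. Over 64 profiles (8 classes in 8 samples, log2 of CPM plus 1), the level of Cdkn1a ran with that of Sesn2 (Pearson r = 0.80), Bax (0.620), Gadd45b (0.602), Bbc3 (0.492) and Mdm2 (0.401), not with Phlda3 (0.007), and against Zmat3 (-0.305), Ccng1 (-0.309) and Trp53inp1 (-0.622). Trp53, the gene for p53, ran against it (-0.740), with 122 CPM in CD8 T-like and 24.2 in neutrophil-like cells. Of 7805 genes compared, Efhd2 (0.945), Rnh1 (0.900) and Gab2 (0.896) were nearest to Cdkn1a. The profiles share samples and differ in depth between classes, so these values describe the data and carry no test.

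Further genes of the pathway were read from lists. Their counts are to be read beside the share of all genes called in each profile, such as 12.2% in monocyte/macrophage-like cells. Of 13 genes of the p53 circuit and the damage kinases, 1 passed in any profile: Atr, the kinase of replication stress, was lower in iKO monocyte/macrophage-like cells (log2 difference -1.0, SE 0.21, edgeR adjusted p = 0.021), at 10.4 to 13 CPM in iKO and 16.3 to 29.3 in control samples. The call was lost without iKO 2, control 2 or control 4 (adjusted p up to 0.064). The list's median was -0.08 in this class and -0.29 in CD8 T-like cells, beside all-gene medians of 0.00 and -0.01.

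Of 32 other p53 targets, 29 were tested in the whole sample, with 0 higher and 1 lower. The monocyte/macrophage-like class had 1 of 27 higher and 2 lower, in CD8 T-like cells 1 of 24 was higher, in cDC2-like cells 1 of 19 was lower, and in the other 5 classes none of the 4 to 20 tested passed. Over all genes, 1.69% were called higher and 0.832% lower in the whole sample, and 6.39 and 5.76% in monocyte/macrophage-like cells. The shares were 1.94 and 1.37% in CD8 T-like and 1.37 and 0.816% in cDC2-like cells. On so few genes, these counts do not set the list apart from all genes. The list's medians lay between -0.18 and 0.09. Pmaip1 (Noxa), a death gene that interferon signals also induce, rose in monocyte/macrophage-like cells from 48.5 to 65.8 CPM in control to 78.9 to 99.6 in iKO samples (0.60, SE 0.12, edgeR adjusted p = 0.017), a call lost without iKO 2 or control 2 (adjusted p up to 0.054). Ccng2 fell there (-0.76, adjusted p = 0.022), a call that 4 of the 8 samples could each remove (iKO 1 and controls 2, 3 and 4, up to 0.059). Plk3, a stress-responsive kinase, rose in CD8 T-like cells from 11.4 to 16.6 to 20.4 to 27.1 CPM (0.73, adjusted p = 0.025), and the call was lost without iKO 1, iKO 2 or control 2, 3 or 4 (up to 0.117).

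Ddit4 (REDD1), an mTORC1 inhibitor induced by low oxygen, glucocorticoids and ATF4 as well as by p53, was the most changed gene of that list, and it fell. In monocyte/macrophage-like cells it stood at 16.4 to 24.7 CPM in iKO and 50.3 to 84.5 in control samples (log2 difference -1.65, SE 0.19, edgeR adjusted p = 0.005), and in cDC2-like cells the difference was -1.62 (adjusted p = 0.008). Both held when each sample was left out in turn. In clusters that both genotypes held, the macrophage difference of Ddit4 was -0.83 (adjusted p = 0.293) and that of Ccng2 -0.50 (adjusted p = 0.325). Pmaip1 (0.57, adjusted p = 0.138) and Atr (-0.90, adjusted p = 0.137) did not pass there either, at sizes near those in the whole class. In the whole sample Ddit4 differed by -0.96 (adjusted p = 0.017), lost without iKO 3 or control 2 (up to 0.059).

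Repair and stress lists gave scattered calls. H2ax, the histone variant that is phosphorylated at DNA breaks and is also made in cycling cells, was the only one of 12 repair and replication genes called, in CD8 T-like cells (146 to 206 CPM in iKO, 73.2 to 121 in control samples; log2 difference 0.88, SE 0.19, edgeR adjusted p = 0.033). That call survived in 1 of 8 fits that left a sample out, the one without control 1 (adjusted p up to 0.111 in the others). In clusters that both genotypes held, the difference was 1.13 (adjusted p = 0.015), and without cycling cells it was 0.24 (adjusted p = 0.617). In CD8 T-like cells 1.94% of all genes were called higher and 1.37% lower. In the same cells 3 of 12 proliferation genes rose, Birc5 (0.76), Ccna2 (0.75) and Aurka (0.98), beside the share of cycling cells given above. Between 0 and 9 of these 12 were called when a sample was left out. In the shared clusters the 3 differences were 0.96, 1.07 and 1.29 (adjusted p 0.019, 0.038 and 0.023).

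Of 12 NF-kB targets, 5 rose in monocyte/macrophage-like cells, where 6.39% of all genes were called higher and 5.76% lower. Those with the smallest p-values were Traf1 (log2 difference 0.85), Nfkb2 (0.69), Icam1 (0.75) and Nfkbie (0.80). Of 12 immediate-early and dissociation-stress genes, 5 fell there, among them Hspa1b (-1.57), Hspa1a (-1.22), Ier3 (-0.69) and Jun (-0.60). With 1 sample left out these counts ran from 0 to 7 and from 1 to 5. In clusters that both genotypes held, none of these 8 named genes passed (adjusted p 0.159 to 0.658). There Nfkb2 differed by 0.57, Icam1 by 0.53, Traf1 by 0.59 and Nfkbie by 0.50, Jun by -0.47 and Ier3 by -0.48, Hspa1b by -0.71 and Hspa1a by -0.46. Ier3, an early survival gene, also fell in CD4 T-like (-1.01) and CD8 T-like cells (-1.21), and both calls held when each sample was left out in turn. Of the ATF4 stress genes, Nupr1 rose in the whole sample (1.21), cDC2-like (0.86) and monocyte/macrophage-like cells (1.20), while Slc7a11 fell in the last (-1.0), with overlapping groups. The cDC2-like call of Nupr1 was lost without iKO 2 or control 2 (adjusted p up to 0.059), and that of Slc7a11 without iKO 1, iKO 2, control 2 or control 4 (up to 0.059). In the shared macrophage clusters Nupr1 differed by 1.0 (adjusted p = 0.070) and Slc7a11 by -0.47 (adjusted p = 0.373). Melanoma markers, which leukocytes do not make, summed to 14.1 to 32.9 CPM in iKO and 7.03 to 12.2 in control monocyte/macrophage-like cells. Their part in these results was not tested.

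Against these, 12 interferon-induced genes gave the scale of the genotype difference in the same profiles. They rose in 11 of 12 tests in the whole sample, 5 of 5 in B-like, 9 of 9 in CD4 T-like, 9 of 10 in CD8 T-like, 7 of 10 in Treg-like, 9 of 12 in cDC2-like, 8 of 11 in neutrophil-like and 8 of 12 in monocyte/macrophage-like cells, with median log2 differences of 1.98 to 3.45. In mature DC-like cells 0 of 10 passed with edgeR, although their median was 2.33. Irf7, the interferon-induced transcription factor that amplifies the response, rose from 45.9 to 88.1 CPM in control to 376 to 584 in iKO whole samples (2.73, SE 0.21, edgeR adjusted p = 0.0008). This list was chosen with earlier results of these data known and serves as a reference for size only.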

How the data were processed

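Single-cell RNA was measured in 8 hashtagged samples of CD45+ tumour cells. The deposited files hold raw UMI counts per gene and cell barcode, made by the authors with Cell Ranger 7.1.0 on GRCm39 per the submitters' processing notes. The intron setting is not given in the sources used here. Of 23731 barcodes, 1241 with under 300 genes or over 10% mitochondrial counts and 438 doublets (Scrublet score over 0.25) were removed. 92 spike-ins were left out. No barcode was shared within a pool, and 45 between pools. Cells were clustered in scanpy 1.11.5 (2000 variable genes, 30 components, 20 neighbours, Leiden resolution 2), without the target and list genes. A class needed 3 markers; the thresholds for naming were chosen with the data in view.

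Counts were summed per sample and class (at least 20 cells; at least 3 samples per group to test). edgeR 4.0.16 in R 4.3.3 (TMM, filterByExpr, quasi-likelihood, Benjamini-Hochberg over all genes, threshold 0.05) was the test, with DESeq2 1.42.0 as an alternative. A test between classes kept the sample as a block. CPM use the profile's own UMI total, without TMM factors; a standard error is the log2 difference over the square root of F. Shares of cells with a UMI were compared with exact two-sided permutation tests after thinning. On simulated data, 97 to 100% of 200 genes changed 4-fold were recovered, with 4.31 to 6.57% false calls. The changed genes were drawn from those above the median level. Smaller changes and genes of low level were not simulated, so recovery of such differences was not measured.

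The 10 genes and all lists were chosen with earlier results of these data known. All 10 are named in every profile. From each list, up to 4 called genes per profile are named, those with the smallest p. Alternatives covered normalization, the filter on low counts, thinning, cluster resolution, replicate number and each sample left out. Fits on clusters that both genotypes held, and the sum without neutrophil-like cells, were added after the data were seen.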

Additional observations from a re-analysis of the deposited data

Results flagged for a closer look

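In 148 groups of 4 samples (a gene in a profile and genotype), 5 held a sample that lay far from the other 3, by Dixon's 95% value for the gap as a share of the group's range; chance gives about 1 group in 20, so this is no more than chance would give. Cdkn1a in CD4 T-like cells was 144 CPM in control 3, and the other 3 controls had 64.1 to 71.6. Bax in B-like cells was 83.6 CPM in iKO 1, and the other 3 iKO samples had 130 to 137. Bbc3 in CD8 T-like cells was 20.5 CPM in control 3, against 12.5 to 13.2 in the other controls. Zmat3 in the same cells and sample was 23.8 CPM, against 8.70 to 9.45. Gadd45b in the whole sample was 235 CPM in control 1, and 398 to 424 in the other 3.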

How the results depend on the processing

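Across the alternatives, 339 of 362 refitted target-gene values kept their direction and stayed uncalled, 18 were called and 5 reversed. These values cover the whole sample and, for the classes and the test between classes, only genes with an unadjusted p under 0.05 in edgeR. Other pairs of a gene and a class are not in this count. The number of target genes called, 0 in every profile, became 1 in the whole sample after thinning to 3000 UMIs (Sesn2 lower) and 0 to 1 with 1 sample left out (Trp53inp1 lower, without control 4). It became 1 in CD4 T-like and 1 in Treg-like cells with no filter on low counts (Gadd45b higher), 1 in mature DC-like (Gadd45b higher) and 1 in monocyte/macrophage-like cells (Phlda3 higher) with DESeq2, and 2 in CD8 T-like (Bbc3 and Ccng1 lower) and 1 in monocyte/macrophage-like cells (Phlda3 higher) at resolution 1. With no filter it was 1 in monocyte/macrophage-like cells and 1 in the test between classes (Phlda3 in both). With 1 sample left out it ran from 0 to 1 in CD4 T-like (control 3), CD8 T-like (control 4) and monocyte/macrophage-like cells (iKO 3 or control 2). The cause of these changes was not tested. The labels do not say what same-numbered samples share beyond the number. Their deviations from group means correlated at 0.60, 0.340, 0.0704 and 0.671 over 7671 genes, and 5 of 8 samples correlated best with their own number. Whether they share a batch was not tested. With the replicate number as a block, 1 target gene was called in each of CD4 T-like, CD8 T-like, Treg-like and monocyte/macrophage-like cells (Gadd45b higher, Bbc3 lower, Gadd45b higher, Phlda3 higher).

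Whole-sample log2 differences near 0 changed sign: Cdkn1a ran from -0.38 to 0.0046, Mdm2 from -0.078 to 0.14 and Bax from -0.072 to 0.22 with 1 sample left out, and Mdm2 was -0.044 when thinned. The difference in the share of cells with a Cdkn1a UMI, in percentage points, ran with 1 sample left out from -2.92 to 5.08 in the whole sample, -3.44 to 0.83 in B-like, -0.90 to 3.43 in CD4 T-like, -1.60 to 1.29 in CD8 T-like, -1.53 to 6.55 in Treg-like, -4.76 to 1.79 in cDC2-like, -5.98 to 1.66 in mature DC-like and -8.55 to 3.31 in neutrophil-like cells. Thinned to 1500 UMIs it was 1.25 in CD8 T-like and 1.14 in mature DC-like cells. Without thinning it was 8.27 in the whole sample, 4.62 in CD8 T-like, 8.66 in mature DC-like and 0.0131 in neutrophil-like cells. Genes of a few CPM rest on few UMIs in all but the largest classes.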
